A study of Drosophila melanogaster with 70 samples.

Results

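Topological domains are stretches of a chromosome whose sequence contacts itself more often than it contacts its neighbours, and Hi-C, which sequences ligated pairs of nearby DNA fragments, finds them through the boundaries between them. The long domains described here are stretches of 100 kb or more between the midpoints of neighbouring boundaries in blastoderm embryos of Drosophila melanogaster. They were chosen by length alone from the stage 5 control list of boundaries, and 239 of its 2586 domains (9.24%) were long. In flies many boundaries lie at the promoters of genes that every cell uses, whereas long domains without inner boundaries are known from gene-poor, repressed chromatin and from loci with large regulatory regions. Many tissue-specific genes, such as those of neurons and sense organs, sit in repressed chromatin of that kind in early embryos.

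The series compares embryos depleted of maternal mof with controls. The gene mof encodes the acetyltransferase that marks lysine 16 of histone H4 and acts in the MSL dosage compensation complex and in the NSL complex. Of the series' 70 samples, 13 are in situ Hi-C libraries, cut with DpnII, each from 50 to 100 embryos staged by hand. The boundary lists give no read counts, so the depth behind them is unknown.

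The stage 5 embryos were unsexed blastoderms in the middle of nuclear cycle 14. Their mothers carried the maternal driver mat-a-tubGal4 (Bloomington stock 7063) and either a control RNAi construct (stock 36304, 3 libraries) or mof RNAi (stock 58281, 2 libraries). The strain labels of the mof samples name the control construct beside the mof stock, and their titles were followed. The mothers had been crossed to siblings, and the RNAi acts from the mother's germ line. The stage 15 list is from embryos of 14 to 16 h after egg laying in an Sxl-GFP background, sorted into GFP negative males and GFP positive females. The descriptions of 8 libraries, 2 for each sex with control or mof RNAi (driver stock 7062), name this list, and which of them it pools is not stated. It can therefore hold both RNAi conditions. The lists hold no measure of mof itself, so depletion was taken from the labels.

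Each list was treated as 1 pooled measurement without replicates, so the values below carry no SD and no test across libraries. Intervals are 95% intervals for counting error only: Wilson intervals for shares, exact Poisson intervals for rates and exact conditional intervals for ratios of rates. Genome positions are on dm6, with each domain or boundary start counted from 1.

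The 239 long domains had a median length of 130 kb, a maximum of 850 kb and a summed length of 34.9 Mb, which was 26.7% of the sequence between the first and last boundary of the arms. There were 49 on 2L, 40 on 2R, 47 on 3L, 63 on 3R and 40 on X. They took between 24.1% (X) and 30.7% (3R) of an arm's spanned sequence. The 100 kb limit cut through a continuous range: 14 domains measured exactly 100 kb and 16 measured 97.5 kb. The 3 shortest members by the tie rule, led by Syt1 (synaptotagmin), smal and CG4168, had 25, 4 and 4 protein-coding genes. Just outside, at 97.5 kb, were the domains of haf with 8 genes, of nAChRalpha6 with 3 and of Mmp2 with 9.

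Part of this length was read as sequence that the authors' map left out. The numbers in the boundary names were taken to count the 2.5 kb bins that the map kept. A gap in the numbering was therefore read as bins that were left out. This reading is inferred from the lists, and no source used here states it. Of the 239 long domains, 209 held at least 1 such bin, against 36.6% of all control domains. In total 19.6% of the bins of long domains were missing, compared with 5.33% in shorter ones. These numbers come from the map that chose the domains and are a description. Counting kept bins only, 184 of the long domains still reached 100 kb and 55 did not.

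The 27 long domains within 2 Mb of the centromere end of an arm's boundary list had lost 56.3% of their bins, and the other 212 had lost 11.8%. The longest domain (chrX:21590001-22440000) spanned 850 kb but kept 145 kb, with 282 bins left out and 29 protein-coding genes. Next came a domain of 507.5 kb (chr3R:1460001-1967500) lying wholly inside Myo81F, an unconventional myosin gene that spans 1966 kb of 3R heterochromatin; it kept 240 kb, the most of any long domain. The 2 Mb window does not take in all such sequence. The domain of uex (chr2R:3595313-4012500), a gene of 2R heterochromatin, lay outside the window and had 71.8% of its 417 kb left out. In pericentromeric sequence, length therefore cannot be told apart from missing bins.

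**Figure D1:**
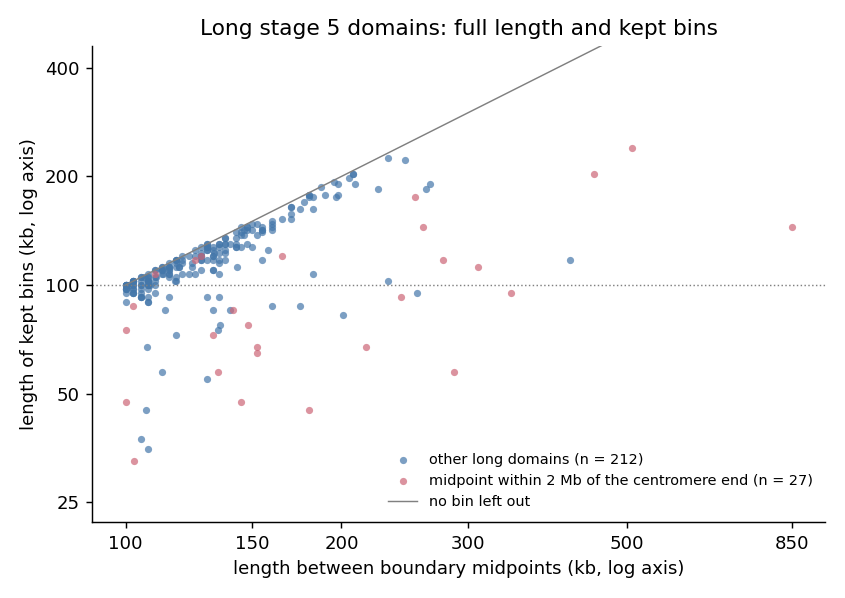
Full length between boundary midpoints against the length of kept bins for the 239 long stage 5 domains, both in kb on log axes; each point is 1 domain, and red points lie within 2 Mb of the centromere end of an arm. Most of the 212 other domains sit near the line where no bin is left out, while the red points fall below it and 55 domains in all lie under the dotted line at 100 kb of kept bins.

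Long domains were gene-poor. They held the midpoints of 2148 protein-coding genes, 15.5% of the 13842 on the 5 arms, in 26.7% of the spanned sequence. Their density was 6.16 genes per 100 kb (5.90 to 6.43), against 12.2 (12.0 to 12.4) in shorter domains, a ratio of 0.505 (0.482 to 0.529). Density fell from 18.4 in domains under 25 kb through 9.04 at 75 to under 100 kb to 7.72 at 100 to under 125 kb. It was 6.08 at 125 to under 150 kb, 7.68 at 150 to under 200 kb and 2.34 in the 24 domains of 200 kb or longer, of whose bins 49.1% were left out.

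The ratio lay below 1 in each setting where it was computed, though its size moved with the left-out bins. Among domains that had none, 30 long and 1609 shorter, density was 10.0 against 14.9 genes per 100 kb and the ratio 0.671 (0.601 to 0.748). Without the pericentromeric domains it was 0.545, and on X alone 0.570. It was not computed for pericentromeric domains alone. There density was 2.91 (2.50 to 3.37) in the 27 long and 2.72 (2.22 to 3.29) in the 79 shorter domains. Of the 178 genes in those 27, 111 were in 1 domain, the histone locus described below. The share of sequence covered by protein-coding genes was 56.2% in long domains and 72.2% in shorter ones.

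Members ranged widely around this mean. The middle 50% of long domains had 2.72 to 9.23 genes per 100 kb, and 20 held no gene midpoint at all. The densest was the histone locus (chr2L:21395001-21575000), a domain of 180 kb with all 111 annotated His1, His2A, His2B, His3 and His4 genes of the arms. It kept 45 kb of its bins. Without it the density of long domains was 5.87. Next came a domain of 115 kb on 3L (chr3L:16232501-16347500) with 47 genes, many of them short genes of the CG130xx series.

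A 112.5 kb domain on X (chrX:19637501-19750000) with no left-out bin held 29 genes. Among them were dome, the JAK/STAT receptor, Cdc42, a small GTPase, and Zw, glucose-6-phosphate dehydrogenase. The Syt1 domain on 2L had 25 genes in 100 kb, including Duox and Taf10, and the sona domain on 2R had 22 in 105 kb. At the other end were stretches inside giant heterochromatic genes, such as chr3R:1035001-1295000 within Myo81F and chr3R:2987501-3170000 within Pzl, named Piezo-like. A 201 kb domain on 2R (chr2R:6298751-6499687) was not touched by any protein-coding gene, and 58.9% of it was left out.

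The median gene spanned 1.67 kb in long domains and 2.24 kb in shorter ones. Genes of 50 kb or longer were nevertheless a larger share there, 4.75% against 1.75%. Of the 306 genes of 50 kb or longer, 102 (33.3%, 28.3 to 38.8) had their midpoint in a long domain, against 15.1% of genes under 50 kb. Of the 83 genes of 100 kb or longer, 43 lay in long domains. In 79 long domains a single gene covered at least 50% of the length. Genes that filled a domain completely were, besides Myo81F and Pzl, kirre (myoblast fusion), bru3 (an RNA-binding protein), Ten-a (a teneurin), rdgA (diacylglycerol kinase), Dys (dystrophin), Sh (the Shaker potassium channel), sm and lovit; they are named after their values were seen.

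Gene ends were not spread evenly across long domains. Protein-coding gene ends numbered 2.71 per 10 kb (2.56 to 2.86) in the 10 kb just outside an end of a long domain and 2.33 (2.20 to 2.47) in the first 10 kb inside. Deeper in, the rate was 1.38 at 10 to 20 kb, 1.18 at 20 to 30 kb and 1.03 at 30 to 40 kb, and it was 0.816 (0.764 to 0.872) beyond 50 kb from both ends. The mean over all spanned sequence was 2.12. In the 30 long domains with no left-out bin the first 10 kb held 3.58 gene ends per 10 kb (3.12 to 4.10) and the next 10 kb 1.53 (1.24 to 1.88). There the rate did not stay low: it was 1.38 at 30 to 40 kb, 1.95 (1.61 to 2.34) at 40 to 50 kb and 2.13 (1.71 to 2.63) beyond 50 kb, close to the mean of all sequence. Beyond 50 kb the low rate was thus seen over all long domains and not in the 30 without left-out bins. In long domains outside the pericentromeric windows it was 0.913 (0.846 to 0.984) there. The 30 were also below the mean from 10 to 40 kb inside, with 1.55 at 20 to 30 kb. Their value beyond 50 kb rests on 87 gene ends. The part that left-out bins play in the low rate was not tested. Boundaries themselves lay at gene ends in 76.1% of the control list, so a rise at domain ends is not particular to long domains. Of the 452 distinct boundaries that end long domains, 66.4% (61.9 to 70.6) had a gene end within 2.5 kb, against 78.1% (76.3 to 79.8) of the other control boundaries.

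**Figure D2:**
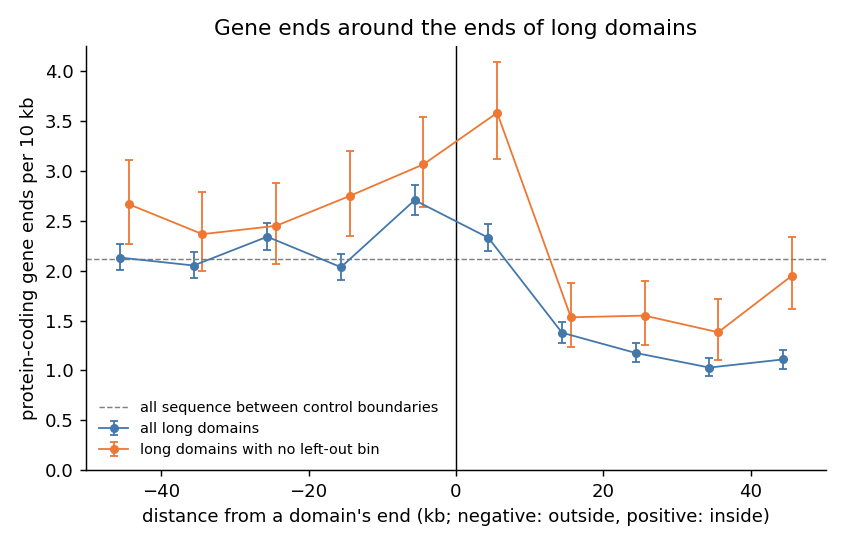
Protein-coding gene ends per 10 kb around the ends of long domains, by distance in kb from the end, with negative distances outside the domain; points are 10 kb windows summed over both ends and bars are 95% Poisson intervals. Gene ends fall from 2.33 to 1.38 per 10 kb between the first and second window inside all 239 long domains, and from 3.58 to 1.53 in the 30 with no left-out bin, where it is 1.95 again at 40 to 50 kb.

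Gene groups differed in how often they lay in long domains, read against the 15.5% of all protein-coding genes. Ion channel and transmitter receptor genes had 24 of 58 members there (41.4%, 29.6 to 54.2), in 17 domains. The 4 in the longest domains were Elk, a potassium channel, Dop2R, a dopamine receptor, Ca-alpha1D, a voltage-gated calcium channel, and the serotonin receptor 5-HT1A. Genes of neuronal cell surface and axon guidance had 29 of 83 (34.9%, 25.6 to 45.7), in 28 domains of 100 to 207.5 kb. In the longest of these were beat-VII, Sema1a (a semaphorin), dpr11 and Nlg4 (a neuroligin).

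Both neuronal groups contain long genes. Among all protein-coding genes of 20 kb or longer, 22.3% (19.8 to 25.0) lay in long domains. The channel list had 16 of 33 such genes there (48.5%, 32.5 to 64.8) and the guidance list 25 of 61 (41.0%, 29.5 to 53.5). Under 20 kb the shares were 8 of 25 (32.0%, 17.2 to 51.6) and 4 of 22 (18.2%, 7.31 to 38.5), beside 15.0% of all genes of that size. The share of all genes was higher still, 33.3% (28.3 to 38.8), at 50 kb or longer, and both list intervals for 20 kb or longer include it. List genes in long domains had median lengths of 44.8 kb (channel) and 43.8 kb (guidance), so the 20 kb cut does not fully match gene length.

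Chemoreceptor genes, the odorant, gustatory and ionotropic receptors of sense organs, are short, with a median of 1.68 kb for those inside. They had 57 of 179 members (31.8%, 25.5 to 39.0) in 30 long domains, often as clusters of neighbouring copies that count as separate genes here. The 6 genes Gr22a to Gr22f shared a domain of 132.5 kb on 2L, and Ir7a to Ir7g shared one of 155 kb on X. The 4 in the longest domains were Or98a, Ir84a, Gr92a and Or43a.

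Genes of pericentromeric heterochromatin had 11 of 25 members in long domains (44.0%, 26.7 to 62.9). They were Myo81F, Pzl, uex, scro (an NK-type homeobox gene), Gpb5 (a glycoprotein hormone subunit), lt (a vacuolar sorting protein), Haspin (a histone kinase), Dbp80 and the ribosomal protein genes RpL38, RpL15 and RpL5. Their 10 domains had a median of 54.3% of bins left out.

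Other groups were near or under the background. Transcription factors that pattern later organs had 8 of 64 members (12.5%, 6.47 to 22.8): acj6, hth, Lim1, vnd, rn, bab1, bab2 and dac. Of these, hth (homothorax) spans 132 kb and was the only gene midpoint of its 118.75 kb domain. Segmentation genes had 2 of 24, the neighbouring Wnt genes wg and Wnt6 in 1 domain of 107.5 kb, and of the 8 Hox genes 0 lay in a long domain, which at this number allows a share of up to 32.4%. Cuticle protein genes had 4 of 95 (4.21%, 1.65 to 10.3), namely TwdlQ, Cpr23B, Cpr92F and Cpr35B.

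Cytoplasmic ribosomal protein genes had 9 of 91 (9.89%, 5.29 to 17.7). Beside the 3 heterochromatic genes above they were RpS9, RpS21, RpS30, RpS26, RpL22-like and RpL10Aa. Of the 9, 6 lay within 1 kb of an end boundary of their domain: RpS9, RpS21, RpL15, RpS30, RpL5 and RpS26. Lying at a boundary was common over the whole list, with 58 of 91 genes (63.7%) at a control boundary. Mitochondrial ribosomal protein genes had 7 of 73, namely mRpS18A, mRpL24, mRpS2, mRpS22, mRpS5, mRpL55 and mRpL33. The 4 of 48 proteasome genes were Prosbeta5R1, Prosbeta5R2, Prosbeta4R1 and Prosbeta4R2, paralogs known for testis expression. Of 14 MSL and NSL complex genes only msl-1, in a domain of 100 kb, lay in a long domain.

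**Figure D3:**
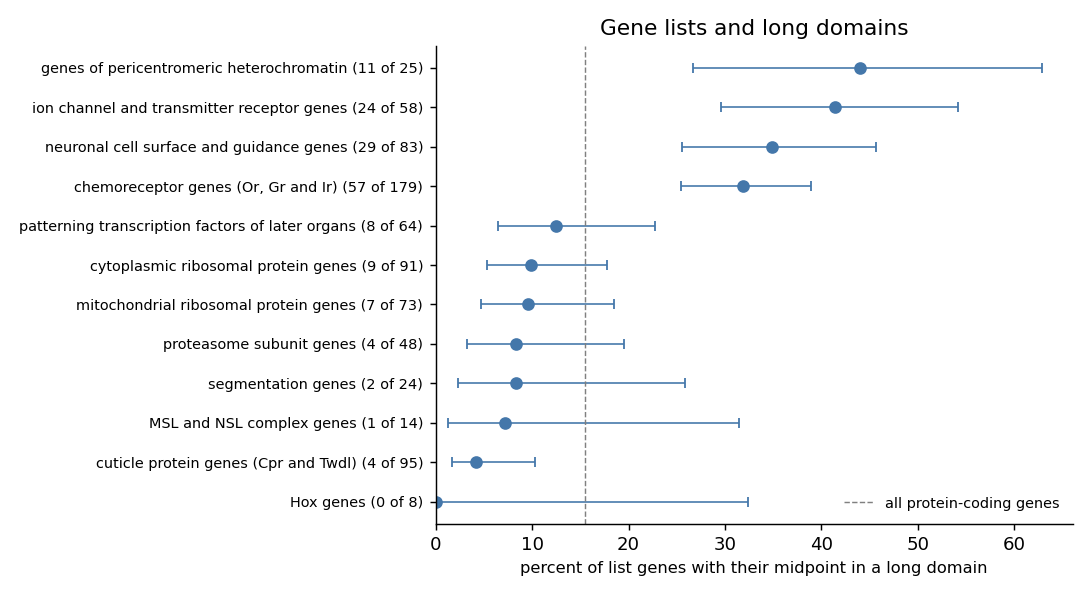
Percent of the genes of each list with their midpoint in a long stage 5 domain; points are shares, bars are 95% Wilson intervals, numbers in brackets are genes inside of genes found, and the dashed line marks 15.5% for all protein-coding genes. Heterochromatin, channel, guidance and chemoreceptor lists lie right of the line and the cuticle list lies left of it, with their intervals clear of it.

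After maternal mof RNAi, boundaries were called inside 135 of the 239 long domains (56.5%, 50.1 to 62.6), against 14.7% of all control domains. A boundary counted as inside when its midpoint lay more than 2.5 kb from both ends. Longer stretches have more room, so rates per Mb of interior are given as well. There were 193 such boundaries, or 5.73 per Mb (4.95 to 6.60), compared with 3.15 (2.79 to 3.56) inside shorter domains. The ratio was 1.82 (1.50 to 2.20) against all shorter domains and 1.44 (1.17 to 1.77) against domains of 50 to under 100 kb. Of the 135 domains, 91 held 1, 35 held 2, 6 held 3, 1 held 4 and 2 held 5.

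The authors give each boundary a score, and the median boundary inside long domains ranked at the 85.5th percentile of the mof RNAi list from its most negative score. The median boundary inside shorter domains ranked at percentile 71.6. With the 50% of the list that had the most negative scores, 20 boundaries remained inside long domains, 0.594 per Mb (0.363 to 0.917). The ratio to shorter domains was then 0.756 (0.434 to 1.26), below 1 but with an interval that includes it. Among the other 50% of scores there were 173 inside long domains, 5.14 per Mb, and the ratio was 2.17 (1.76 to 2.67). What a negative score says about the strength of a boundary is not stated in the sources used here. The domains were also chosen for having no boundary in the control list, and the lists rest on 3 control and 2 mof RNAi libraries, so differences in depth, in calling and in RNAi cannot be told apart.

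The MSL complex acts on the male X. On that chromosome the 40 long domains had 31 mof RNAi boundaries inside, 5.80 per Mb (3.94 to 8.23), beside 5.72 (4.87 to 6.67) in the 199 autosomal ones. Shorter domains on X had 4.36 per Mb (3.38 to 5.53), and the ratio of long to shorter on X was 1.33 (0.840 to 2.07), an interval that includes 1. The embryos were unsexed, so males and females are mixed in these values.

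At stage 15, boundaries were called inside 193 of the long domains (80.8%, 75.3 to 85.2), against 33.3% of all control domains. The 377 boundaries amounted to 11.2 per Mb (10.1 to 12.4), compared with 9.57 (8.92 to 10.3) inside shorter domains, a ratio of 1.17 (1.03 to 1.32). Against domains of 50 to under 100 kb the ratio was 1.04 (0.910 to 1.20), an interval that includes 1. By score, that ratio was 1.29 (1.01 to 1.64) for the 50% of the stage 15 list with the most negative scores. For the other 50% it was 0.943 (0.796 to 1.11). Set against all shorter domains, these ratios were 1.23 (0.991 to 1.51) and 1.14 (0.976 to 1.33). From the most negative score, the median stage 15 inside boundary ranked at percentile 71.5 in long domains and 64.8 in shorter ones. Among long domains it ranked at percentile 10.0 in the pericentromeric ones and 76.6 in the others. The part this plays in the ratios was not tested. In counts, 81 long domains held 1 stage 15 boundary, 64 held 2, 32 held 3, 10 held 4, 4 held 5 and 2 held 6. All 24 domains of 200 kb or longer had at least 1. The longest piece left uncut in a long domain measured a median of 90 kb at stage 15 and 107.5 kb after mof RNAi, and 96 and 158 domains still held a piece of 100 kb or more.

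**Figure D4:**
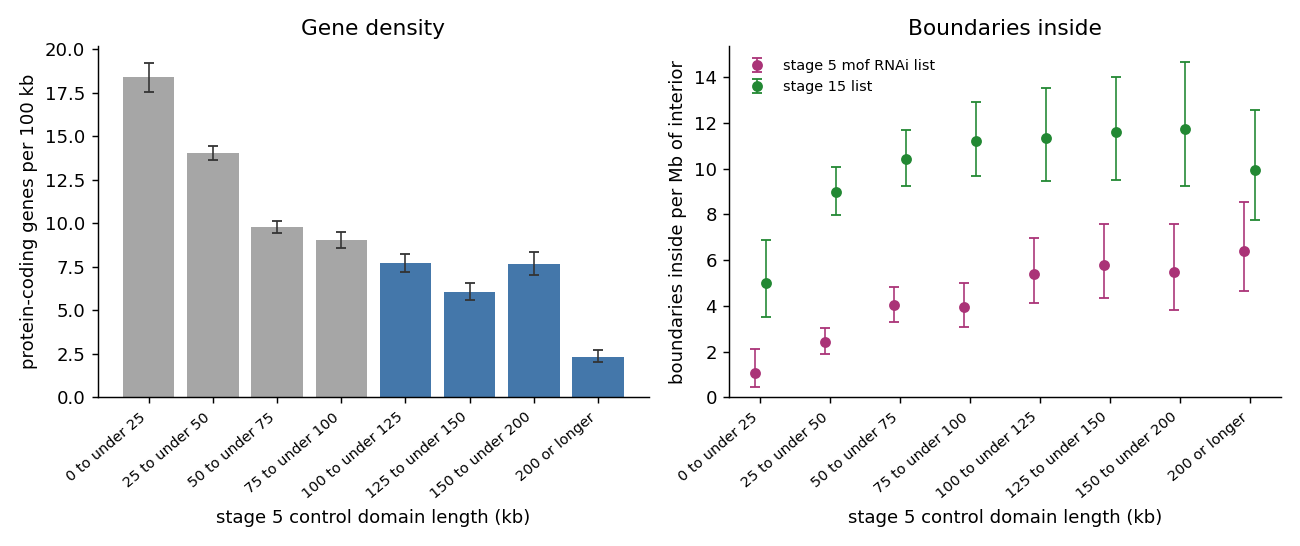
Left, protein-coding genes per 100 kb by the length of stage 5 control domains, with long classes in blue; right, boundaries of the mof RNAi and stage 15 lists inside the domains per Mb of interior; bars and whiskers show values with 95% Poisson intervals. Gene density falls from 18.4 under 25 kb to 2.34 at 200 kb or longer, while the stage 15 rate is between 9.94 and 11.7 per Mb in the long classes.

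Inside boundaries after mof RNAi and at stage 15 were matched to each other. Of the 193 mof RNAi boundaries inside long domains, 36 (18.7%, 13.8 to 24.7) had a stage 15 boundary within 2.5 kb, against 21.7% of all mof RNAi boundaries without a control partner. These 36 were 9.55% of the 377 stage 15 boundaries inside (background 8.51%). Both shares were near their background. The share of mof RNAi boundaries rose with the distance allowed, to 26.4% within 5 kb and 37.8% within 10 kb. The background at those distances was not computed. In the domains without left-out bins the share within 2.5 kb was 29.4%, or 5 of 17 (13.3 to 53.1), an interval that includes 21.7%. Both lists had a boundary inside 111 long domains (46.4%, against 5.62% of shorter domains). A boundary lay inside after mof RNAi only in 24 (10.0%, against 4.86%) and at stage 15 only in 82 (34.3%, against 22.9%). Neither list had one in 22 (9.2%, against 66.6%).

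The shared places with the most negative mof RNAi scores had gene ends nearby. They lay beside DPCoAC, a mitochondrial carrier, in the 180 kb domain that also holds Stat92E, beside CG13455, beside Qsox1 and beside Ass, and all 4 were within 0.6 kb of an end of the gene named. Another lay 2.00 kb from an end of Appl, the amyloid precursor homologue. Other mof RNAi boundaries among the 10 most negative were nearest to CheB98a, sgl, CG3662, Msp300 and Cnx99A, without a stage 15 boundary within 2.5 kb.

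Over all long domains, gene ends were less common at inside boundaries than at boundaries in general. A protein-coding gene end lay within 2.5 kb of 31.1% (25.0 to 37.9) of the mof RNAi boundaries inside long domains, against 73.7% of that whole list and 51.3% (45.3 to 57.3) of those inside shorter domains. For stage 15 the share was 41.6% (36.8 to 46.7), against 76.4% of the list and 68.0% (64.7 to 71.2) inside shorter domains. It was 7.27% in pericentromeric long domains and 47.5% in the others. In long domains with no left-out bin it was 72.2% (26 of 36, 56.0 to 84.2), an interval that includes 76.4% and 68.0%. The share within the body of a protein-coding gene was also lower, 56.8% (51.7 to 61.7) of stage 15 inside boundaries against 65.7% (64.0 to 67.5) of the whole list. Such genes cover 56.2% of long domain sequence.

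The stage 15 inside boundaries with the most negative scores were partly heterochromatic. Of the 10, 3 lay in the Gpb5 domain of 2L (chr2L:23070001-23312500), 61.9% of which was left out, 1 in the domain of lt, 19.8 kb from an end of that gene, and 1 in the domain of CG40228. A further 2 of the 10 lay in a 107.5 kb domain on 2L that holds most of stol, 1 of them 0.081 kb from an end of CycE, which encodes cyclin E, and 67.4% of that domain was left out. Another 2 lay in the domain of serp and verm, chitin deacetylases of the trachea, where 64.3% of bins were left out. The last lay 0.877 kb from an end of Lar, a receptor tyrosine phosphatase. Thus 9 of the 10 lay in domains with more than 50% of their bins left out, against 0 of the 10 from the mof RNAi list.

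The 2 lists differed in how inside boundaries followed gene density. The 212 domains outside the pericentromeric windows were ranked by gene density and cut in 3 groups of 71, 71 and 70. The mof RNAi rate was 7.16 per Mb (5.59 to 9.03) in the gene-poorest group, 5.32 in the middle and 4.81 (3.48 to 6.48) in the gene-richest. The stage 15 rate ran the other way, from 9.58 (7.75 to 11.7) through 12.0 to 13.5 (11.2 to 16.2). The intervals of the outer groups overlap in both lists. The gene-poorest group also had 21.0% of its bins left out, against 6.78% and 6.52% in the others, and the part this plays was not tested.

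The ends of long domains were looked for in the other lists. Both ends had a partner within 2.5 kb in the mof RNAi list for 135 long domains (56.5%, 50.1 to 62.6), against 63.7% of all control domains, and at stage 15 for 84 (35.1%, 29.4 to 41.4), against 41.0%. Taking boundaries singly, 75.7% (71.5 to 79.4) of the 452 end boundaries had a mof RNAi partner and 55.3% (50.7 to 59.8) a stage 15 partner, against 79.3% and 63.0% of the other control boundaries. Among boundaries with scores below the list median the shares were alike, 76.6% and 76.6% at stage 15. At or above it they were 37.7% (31.8 to 43.8) for ends of long domains and 48.9% (45.9 to 51.9) for the others. Of the 30 long domains with no left-out bin, 73.3% (55.6 to 85.8) had both ends after mof RNAi and 50.0% (33.2 to 66.8) at stage 15. Of the 1609 shorter domains with none, 69.5% and 46.7% did. The intervals of these 30 long domains also include the 56.5% and 35.1% of all long domains. So small a set therefore cannot show whether the lower shares are absent there.

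Domains with both ends present and nothing inside were called the same. After mof RNAi 71 long domains (29.7%) were the same, against 58.4% of all control domains, and 64 had both ends but were split. At stage 15, 18 were the same (7.53%), against 32.0%, and 66 were split. Longer stretches have more room for a boundary inside, and the share that was the same fell with length among shorter domains too. After mof RNAi it was 68.2% under 25 kb and 45.4% at 75 to under 100 kb. The stage 15 shares of these classes were 43.2% and 17.1%. Only 1 of the 24 domains of 200 kb or longer was the same after mof RNAi: that of CG34353 (chr3R:27677501-27922500), 245 kb with 22 genes, among them Sce, a Polycomb group gene, and Ets98B. At stage 15 it had both ends and 5 boundaries inside, with starts at 27698751, 27733751, 27748751, 27763751 and 27778751. All 5 lay in the left part of the domain, and only the last of them inside CG34353, a gene of 138 kb.

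The same course, unbroken after mof RNAi and split at stage 15, was seen in 31 long domains (13.0%, against 4.81% of shorter ones, which have less room). They included the acetylcholine receptor domain of nAChRalpha1, nAChRalpha2 and nAChRbeta2 (155 kb, 1 stage 15 boundary inside). The domains of dac, acj6, Dscam3, Nlg1, beat-IV and 5-HT7 were also among them. So were domains of other kinds, such as that of PH4alphaPV and Spn100A, that of SsRbeta and MED10, and the 115 kb domain with 47 genes. The names were picked after their values were seen, so they do not show which kind of gene is common among the 31. The dome and Cdc42 domain and the Syt1 domain, both gene-rich, had 2 stage 15 boundaries inside each. The reverse, split after mof RNAi and the same at stage 15, was seen in 6: the histone locus, and the domains of side-III, pHCl-1, CG44422, beat-VI and CG15570.

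Of the 239, 5 long domains (2.09%, against 27.1% of shorter ones) were the same in all 3 lists. They were the Gr22 cluster (132.5 kb), nAChRalpha3 on X (135 kb), Haspin on 2R (175 kb, of which 87.5 kb kept), CG45002 on X (110 kb) and the neighbouring myosuppressin receptor genes MsR1 and MsR2 on 3L (105 kb). They were named after their values were seen. At the other extreme, 10 long domains (4.18%) had neither end in either list, near the 3.45% of shorter domains.

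Large domains differed in how many boundaries they held inside. The domain of ValRS, Qsox1 and Dh31-R, a neuropeptide receptor (chr2R:13197501-13430000), spanned 232.5 kb with 40 genes and only 3 bins left out. It had both ends in both lists, 4 boundaries inside after mof RNAi and 5 at stage 15, with shared places at 13233751 and 13413751. The domain of Tl, which encodes the Toll receptor of dorsoventral patterning (207.5 kb, 16 genes), had 1 boundary inside after mof RNAi and 4 at stage 15. Its left end had no partner in either list, and its right end had none at stage 15.

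The domain between stg, which encodes the mitotic Cdc25 phosphatase, and Ptp99A (207.5 kb, 6 genes) had 1 boundary inside in each list, 59.7 kb apart. The rn domain (205 kb, 18 genes) had 1 and 2, the Elk domain (195 kb, 18 genes) 0 and 1, and the CG34354 domain (208.75 kb, 12 genes) 2 and 3. In 2R heterochromatin the domains of CG41378 and of Gprk1, a receptor kinase gene of 149 kb, had 5 boundaries inside after mof RNAi, more than any other, and 2 and 4 at stage 15. The longest domain, on X, and the uex domain had 6 at stage 15.

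**Figure D5:**
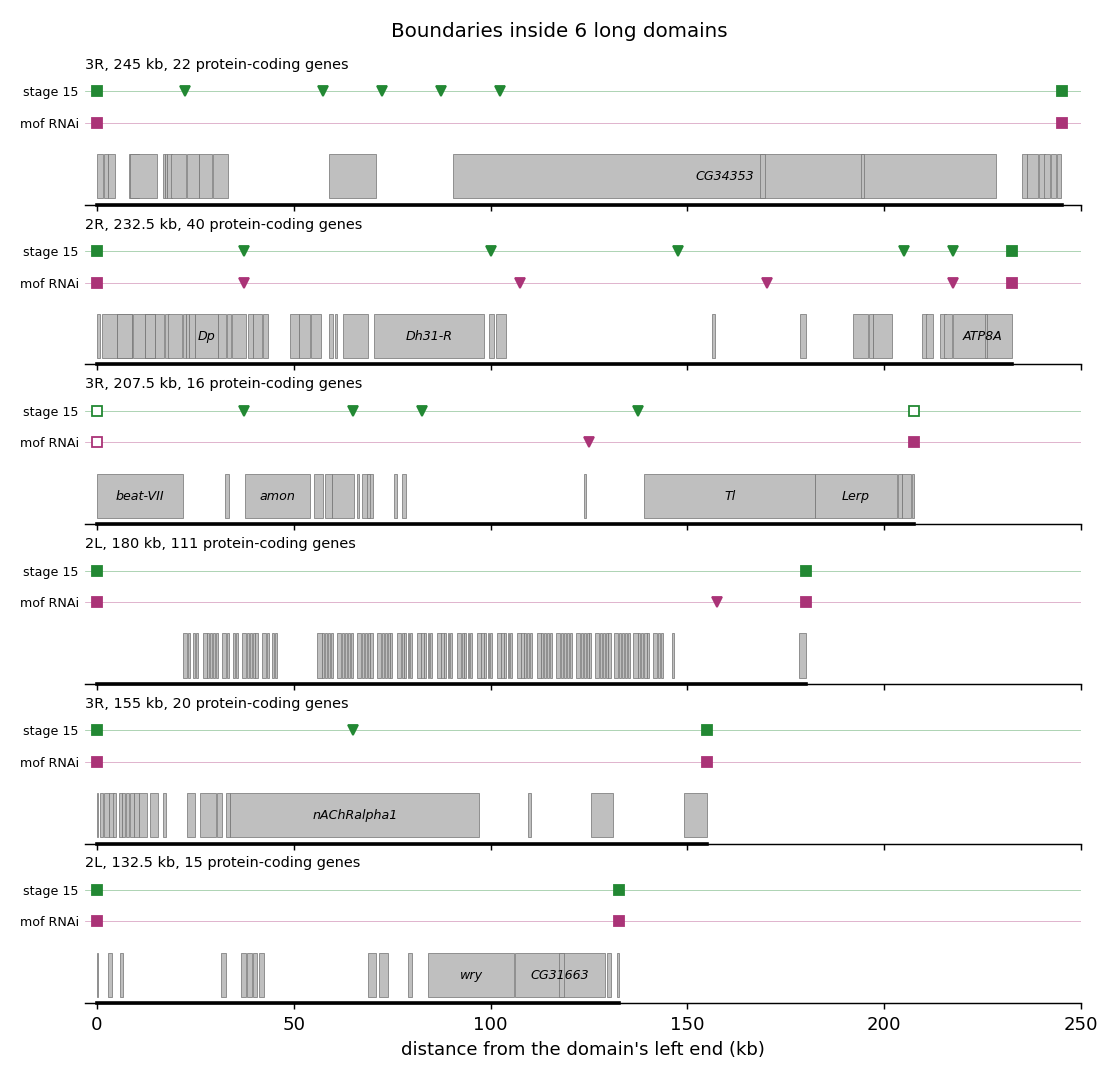
Maps of 6 long domains, named by arm, length and gene number, drawn from their left end in kb with protein-coding genes as grey boxes; triangles are boundaries inside in the stage 15 (green) and mof RNAi (purple) lists, and squares mark the domain's ends, filled where a partner lies within 2.5 kb. The CG34353 domain at the top has 5 stage 15 triangles and no mof RNAi one, the 111 genes of the histone locus have none at stage 15, and the Gr22 domain at the bottom has none in either list.

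Inside boundaries were also counted in the domains that hold each gene group. Of the 28 long domains with guidance genes, 17 had a boundary inside after mof RNAi and 22 at stage 15, and of the 17 with channel genes 8 and 14. Over all long domains the shares were 56.5% and 80.8%. In the Sema1a domain on 2L (197.5 kb, 9 genes) there were 2 and 3, with a shared place 0.177 kb from an end of PrBP. The Sh domain on X, filled by that gene, had 0 and 3, and the bab1 and bab2 domain 2 and 1 with a shared place 1.41 kb from an end of bab1. The 30 chemoreceptor domains had 17 and 24.

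Each list had its own long domains in similar numbers: 264 of 2494 after mof RNAi (10.6%) and 240 of 2780 at stage 15 (8.63%). Their sequence overlapped only in part. Of the control long domain sequence, 68.0% lay inside a long domain of the mof RNAi list and 49.2% inside one of stage 15, and 62.8% and 50.1% of the long domain sequence of those lists lay inside one of control.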

How the data were processed

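The authors deposited boundary lists, of which 3 were used. Per the labels and the submitters' processing notes the bins measured 2.5 kb and the genome was dm6. No source used here names the caller or its settings. Each boundary has a score deposited by the authors on a scale that is not stated, used only by rank within its list. A further stage 5 list was identical to the control list and was not used. In the stage 15 list the bin numbers show 0 left-out bins, and whether that map left any out is not known.

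Domains run between midpoints of neighbouring boundaries on an arm. Left-out bins are the length in bins less the difference of the numbers in both boundary names, whose meaning is inferred from the lists. Boundaries wider than 1 bin, 140 in each stage 5 list and 0 at stage 15, were placed at their midpoint. Boundaries were matched within 2.5 kb. Genes came from the RefSeq table of Release 6 (dm6), without strand, and were assigned by midpoint. Lists pool libraries, so no replicate test was possible.

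The members, the 12 gene lists and the tests were chosen with earlier results of these data known. Domains named one by one were the 10 with the most kept bins, the 5 with the most left-out bins, the 5 with the most inside boundaries of each list, and the 5 with the most and fewest genes per 100 kb. Genes named were those domains' list genes and longest genes, all genes of lists with 12 or fewer inside or else 4 in the longest domains, and the gene nearest to each of the 10 inside boundaries per list whose scores were most negative. Others were named after their values were seen. Promoter motif counts had been planned, and with no promoter sequence in hand they were not run, so no sequence is shown. Counting functions were tested on simulated lists. Alternatives for length, left-out bins, arms, gene assignment, scores and matching distances were recomputed, 3 of them added after the data were seen. The depth is unknown. Python 3.11.15, pandas 2.3.3, NumPy 2.4.6 and SciPy 1.17.1 were used.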

Additional observations from a re-analysis of the deposited data

How the results depend on the processing

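No paired analysis was possible because each list pools its libraries, and for the same reason no single library could be left out. Of 112 recomputed values, 59 stayed within the interval of the reported value (the number of domains, within 1.5 times) and 53 moved. A reversal was defined only for the gene density ratio, which stayed below 1 in every alternative. The ratios of boundaries inside long and shorter domains were not among the 112. With a minimum of 150 kb there were 64 domains, 4.93 genes per 100 kb, a density ratio of 0.438, 32.4% of bins left out, boundaries inside 75.0% (mof RNAi) and 92.2% (stage 15), both ends at stage 15 in 28.1%, and 32.0% of stage 15 inside boundaries at gene ends. With 75 kb these were 455, 7.15, 0.553, 15.4%, 43.1% and 72.1%, with 50.2% at gene ends. By kept bins the values were 6.49, 0.556 and 13.9%. With only the 30 long domains without left-out bins density was 10.0 and the ratio 0.821. It was 0.671 with shorter domains treated alike, an alternative added after the data were seen. In those 30, left-out bins were 0%, mof RNAi boundaries inside 50.0% and both ends 73.3% and 50.0%. Their stage 15 partners were 29.4% (5 of 17) and gene ends 72.2%. Autosomes alone and larger margins for inside boundaries moved 0 values. On X alone there were 40 domains, a ratio of 0.570 and 12.9% with stage 15 partners. Without pericentromeric domains density was 6.85, the ratio 0.545, left-out bins 11.8% and gene ends 47.5%. Density and ratio were 5.71 and 0.536 for genes wholly inside, 8.50 and 0.559 for every biotype, 7.66 and 0.595 over kept bins, and 5.87 and 0.482 without the histone locus (added after the data were seen). The 50% most negative scores left mof RNAi boundaries inside 8.37% of long domains (0.594 per Mb) and stage 15 boundaries inside 37.7% (4.04 per Mb). Matching within 5 kb gave both ends at stage 15 in 41.8% and stage 15 partners for 26.4%; within 10 kb both ends were found in 64.0% and 49.8% and partners for 37.8%. Gene ends within 5 kb gave 51.5%. Apart from the effects of fewer or other domains, genes or boundaries that each alternative names, the cause was not tested. The unknown depth limits all calls of absence.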

Other observations

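Other classes of genes had their own distribution. Long domains held 486 of 1945 lncRNA genes (25.0%, 23.1 to 27.0), against 15.5% of protein-coding genes and 26.7% of the sequence. Their density was 1.39 per 100 kb in long domains and 1.52 in shorter ones. Long domains also held 50 of 238 pseudogenes (21.0%, 16.3 to 26.6). They held 43 of 290 tRNA genes (14.8%, 11.2 to 19.4), 63 of 493 antisense RNA genes (12.8%, 10.1 to 16.0), 28 of 258 miRNA genes (10.9%, 7.62 to 15.2) and 14 of 268 snoRNA genes (5.22%, 3.14 to 8.58). Of 98 annotated rRNA genes on the arms, 96 lay in 1 domain of 132.5 kb on 2R (chr2R:19692501-19825000), the locus of the 5S rRNA gene repeats, of which 35.8% of bins were left out. It also held 9 tRNA genes and 10 protein-coding genes, 1 of them the odorant receptor gene Or56a. It was the same after mof RNAi and had 2 boundaries inside at stage 15. The most lncRNA genes in a long domain were 14, in 120 kb of 3L (chr3L:11237501-11357500) beside 4 protein-coding genes. That domain too was the same after mof RNAi, with 2 boundaries inside at stage 15.

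The domains next to a long domain had a median length of 40 kb, beside the 38.6 kb median of all control domains, and 26 pairs of long domains shared an end.

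The mof RNAi rate was 3.77 per Mb (2.23 to 5.95) at 2.5 to 12.5 kb from the nearer end and 6.93 (5.46 to 8.68) beyond 50 kb, and the stage 15 rate 8.79 (6.33 to 11.9) and 10.9 (9.07 to 13.1), with intervals that overlap. Ends without a partner were often far from any boundary: of 478 ends, 121 had none within 2.5 kb after mof RNAi, at a median distance of 27.5 kb to the nearest, and 217 at stage 15, at a median of 20 kb.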
